A study of Mus musculus with 6 samples.

Results

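The cytoplasmic ribosomal protein genes encode the proteins of the large (60S) and small (40S) subunits of the ribosome that translates nuclear mRNAs. They were chosen by symbol alone: Rpl or Rps followed by a number and optional letters, with Rplp0, Rplp1, Rplp2 and Rpsa, and without -ps pseudogenes and the Rps6k kinases. The rule took 82 of the 32285 genes in the expression tables, 50 of the large and 32 of the small subunit, all of them protein coding in the annotation. It left out a few ribosomal proteins whose symbols end in a digit or carry another name, such as Rps3a1, Fau, Rack1, Rpl22l1 and Rpl7l1, and these were followed separately. Of the 82 genes, 79 passed the filter on low counts in granulocyte-monocyte progenitors (GMPs). The other 3 were tissue-restricted copies, Rpl10l, Rpl39l and Rpl3l, with 1, 40 and 45 unique molecular identifiers (UMIs, each standing for 1 captured mRNA) over all GMPs.

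Ribosomal proteins are made in nearly equal numbers and carried to the nucleolus, where they are built onto ribosomal RNA. Their mRNAs are among the most abundant of any growing cell, and most begin with a C followed by a run of C and T, the 5 prime terminal oligopyrimidine (TOP) tract, through which the growth regulator mTOR and the RNA-binding protein LARP1 set their translation and stability. Blood formation is sensitive to the dose of single members: loss of a copy of RPS19, RPL5, RPL11 and others causes Diamond-Blackfan anemia, and RPS14 is lost in the 5q- syndrome.

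Bone marrow came from female BALB/c mice 10 weeks old at harvest and was enriched for cells bearing the receptor cKit with magnetic beads. The 3 groups were mice without tumor (NTB, hashtag B0301), mice with orthotopic 4T1 mammary tumors given the vehicle (B0302) and 4T1-bearing mice given brequinar (BRQ, B0303) at 10 mg/kg daily for 2 weeks. BRQ inhibits DHODH, an enzyme of de novo pyrimidine synthesis, and the tumor was a transplanted cell line in every tumor-bearing mouse. No group had BRQ without tumor. Each of 3 pools held 1 mouse of each group, so 9 mice were measured in 3 single-cell libraries, and the hashtags told the mice of a pool apart.

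The singlet cells per mouse numbered 382 to 2780 and carried 4586673 to 36868303 gene UMIs. In 2 NTB mice, pools 2 and 3, the assigned tag had fewer counts at the median than the next tag of the same cells (ratios of 0.754 and 0.507, against 1.22 to 3.97 in the other 7 mice), and counts of called members, other than those for the difference between classes and for single neutrophil-like clusters, were also taken from cells whose own tag was at least 2 times the next after both were scaled. Of 15944 barcodes, 22 (0.138%) occurred in more than 1 pool. A cell was taken as a GMP where ln(1 + x) exceeded 3, x being its Ms4a3 UMIs per 10000. In pools 1 to 3, NTB mice gave 88, 135 and 177 of them, vehicle mice 1017, 95 and 289, and BRQ mice 806, 656 and 653, with 998154 to 16074010 UMIs per mouse. Clusters made without the member genes were named from marker lists as HSC/MPP-like (stem and multipotent progenitors), monocyte-like, neutrophil-like and erythroid-like, and a cluster led by Fcnb, with genes of GMPs and of neutrophil precursors, stayed unnamed.

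The members' share of all gene UMIs, a level that depends on every other gene of the same cells, was highest in the immature classes. In GMPs the NTB mice had 28.9%, 28.5% and 27.5%, the vehicle mice 28.5%, 27.6% and 28.0%, and the BRQ mice 24.1%, 26.0% and 22.3%. The NTB and vehicle mice overlapped, and all 3 BRQ mice lay below all 6 others. Means were 28.3% ± 0.708, 28.0% ± 0.437 and 24.1% ± 1.82 (SD, n = 3 each). HSC/MPP-like cells had 30.4% ± 0.582 in NTB (n = 3), 29.3% ± 0.723 in vehicle (n = 2) and 28.1% ± 1.26 in BRQ mice (n = 3). Monocyte-like cells had 30.2% ± 0.632, 28.9% ± 0.537 and 25.2% ± 1.69 (n = 3 each), again with every BRQ mouse below every vehicle mouse. Neutrophil-like cells gave far smaller shares, 6.87% ± 0.405, 6.43% ± 1.04 and 7.18% ± 1.34 (n = 3 each), and the 3 groups overlapped. The Fcnb-led cluster stood between, at 18.4% ± 0.676 (n = 3), 19.7% ± 0.785 (n = 2) and 18.4% ± 0.569 (n = 3). Erythroid-like cells, with too few vehicle cells for a test, had 30.8% ± 2.09 in 2 NTB mice, 30.0% in 1 vehicle mouse and 27.7% ± 1.93 in 3 BRQ mice.

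**Figure D1:**
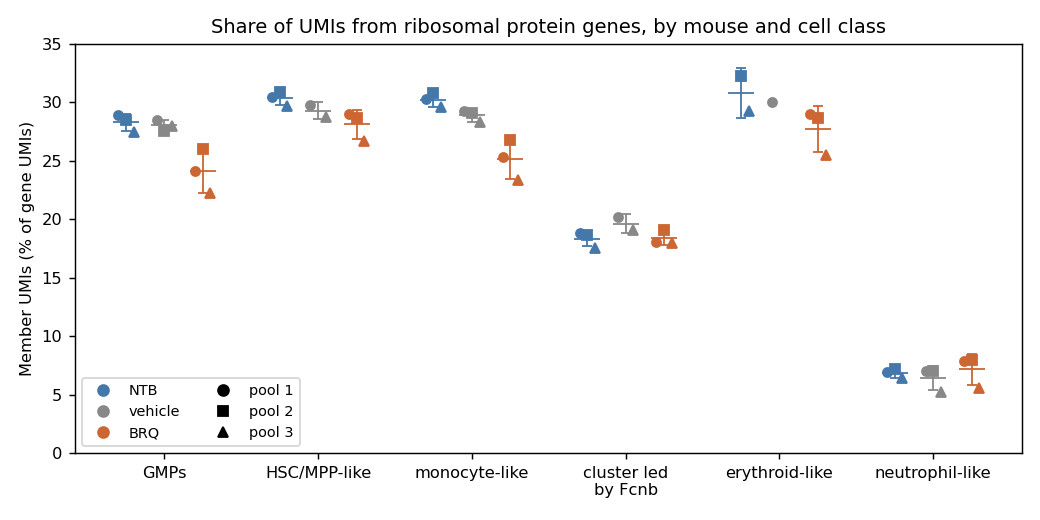
Share of gene UMIs from the 82 member genes (y axis, %) in each cell class (x axis), 1 point per mouse with at least 20 cells of the class, with the shape giving the pool and lines the mean and SD. In GMPs and monocyte-like cells the BRQ mice lie below the other groups, and in neutrophil-like cells the groups overlap near 7%.

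GMPs of vehicle mice carried more UMIs than those of NTB mice: the median UMIs per GMP ran from 14737 to 17966 in vehicle, 12168.5 to 15795 in BRQ and 10828.5 to 11581 in NTB mice. The share was therefore also read among cells of like UMI counts. Among GMPs with 8000 to 12000 UMIs NTB mice had 28.9%, 28.5% and 28.1%, vehicle mice 28.4%, 27.3% and 27.6%, and BRQ mice 23.8%, 25.6% and 21.2%. The BRQ mice stayed below the mice of the other groups in each range from 4000 UMIs up. Under 4000 UMIs the 5 mice with at least 10 GMPs ranged from 16.1% to 20.8% with the groups mixed. Within the 2 large GMP-like clusters NTB and vehicle mice did not overlap. The cluster led by Fkbp11 and Ctsg had means of 32.1% in NTB (31.7% to 32.5%), 29.2% in vehicle (28.8% to 29.7%) and 25.4% in BRQ mice (23.2% to 27.4%). The cluster led by Elane and Prtn3 had 28.2% (27.6% to 29.0%), 26.8% (26.8% to 26.9%) and 23.3% (21.6% to 25.2%).

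**Figure D2:**
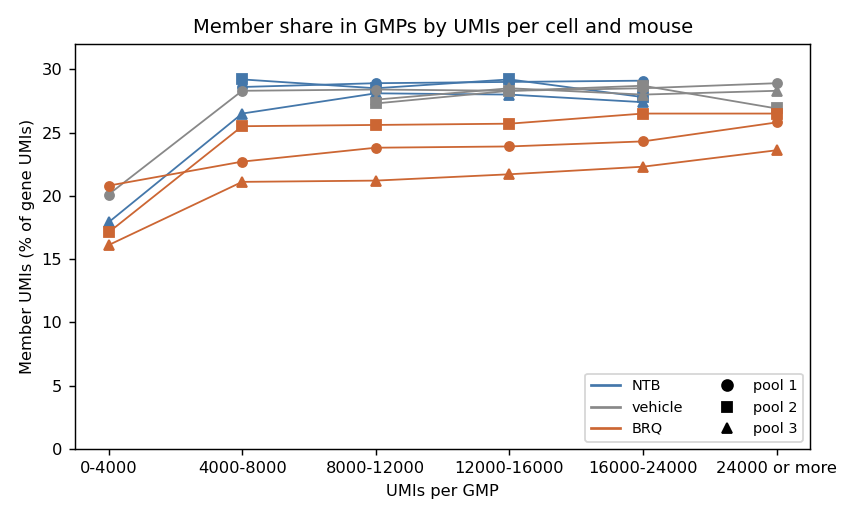
Member share of gene UMIs in GMPs (y axis, %) by the number of UMIs per cell (x axis), 1 line per mouse, for bins with at least 10 GMPs of that mouse. From 4000 UMIs up the 3 BRQ lines run below the NTB and vehicle lines, and under 4000 UMIs all lie between 16.1% and 20.8%.

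Vehicle was compared with NTB to ask how these genes differ in GMPs of tumor-bearing mice. As described, the groups differ in the tumor and in the vehicle given, which cannot be told apart. Of the 79 members tested 2 were called, both higher in vehicle mice: the paralog Rps27l and Rpl41. That is a smaller share than among all genes, of which 6.63% were called higher. The members' median log2 fold change was 0.004 and that of all 10331 genes -0.01, with 41 members above 0 and 38 below. Equal numbers of GMPs per cluster gave 17 above and 62 below, with a median of -0.08. Rps27l, a copy of Rps27 that p53 is known to induce, had 727, 803 and 737 CPM (counts scaled by library size and TMM factors) in NTB and 1112, 997 and 1051 in vehicle mice. Every vehicle mouse exceeded every NTB mouse, with a log2 difference of 0.48 ± 0.09 (SE, adjusted p = 0.0013, edgeR). Rpl41, which encodes the smallest protein of the ribosome, had 6314, 5910 and 5931 CPM in NTB and 7436, 7362 and 7991 in vehicle mice, again without overlap (log2 difference 0.33 ± 0.092, adjusted p = 0.0223). The Rpl41 call was lost without NTB mouse 2 or 3 or vehicle mouse 1 or 3, leaving Rps27l, and without NTB mouse 1 or BRQ mouse 3 the count was 3. With pool as a block Rps2 was called as well (0.31, adjusted p = 0.00114, against 0.0657 without it). Rpl7, Rpl13 and Rpl29 were nearest to no difference, with log2 values of 0.003, -0.002 and 0.004.

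BRQ was compared with vehicle to ask what the drug does in tumor-bearing mice. In GMPs 62 of 79 members were lower and none higher, while 7.36% of all genes tested were called lower and 6.08% higher. All 79 fitted log2 fold changes were below 0, from -0.69 to -0.008, with a median of -0.40 against 0.001 over all genes. In 74 members all 3 BRQ mice were below all 3 vehicle mice, which held for 15.4% of all genes. These are changes relative to other mRNAs. With totals in place of TMM factors, a change of scale that moves all genes about alike, the median of all genes moved to 0.20 and that of the members to -0.22. The distance between them is thus kept by construction, and 41 members were called lower with totals. On that scale Rps19, Rps27l, Rps29 and Rpl24 had values above 0, and of the calls given below those on Rplp2 (-0.13, adjusted p = 0.164), Rpl11 (-0.20, adjusted p = 0.0607), Rpl22 (-0.13, adjusted p = 0.159), Rpl36a (-0.14, adjusted p = 0.162), Rpl29, Rpl37, Rpl38 and Rps27 were lost. Without vehicle mouse 1, which gave most of the vehicle GMPs, 35 members were called with a median of -0.37. With TMM factors computed without the members 60 were called, with DESeq2 64, and with pool as a block 75 (11.5% of all genes), Rpl13 (adjusted p = 0.000343) and Rpl8 (adjusted p = 0.00172) among those gained. Equal numbers of GMPs per UMI range gave 49, and cells with the stricter tag rule gave 59.

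The study words its limits of 500 and 7500 per cell in transcripts, and they were read here as detected genes. Read as UMIs, they leave 8 and 16 GMPs in vehicle mice 2 and 3, and then no member and no gene was called by edgeR (0 members and 139 of 3229 genes at an unadjusted p under 0.05), and the members' median was 0.064.

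**Figure D3:**
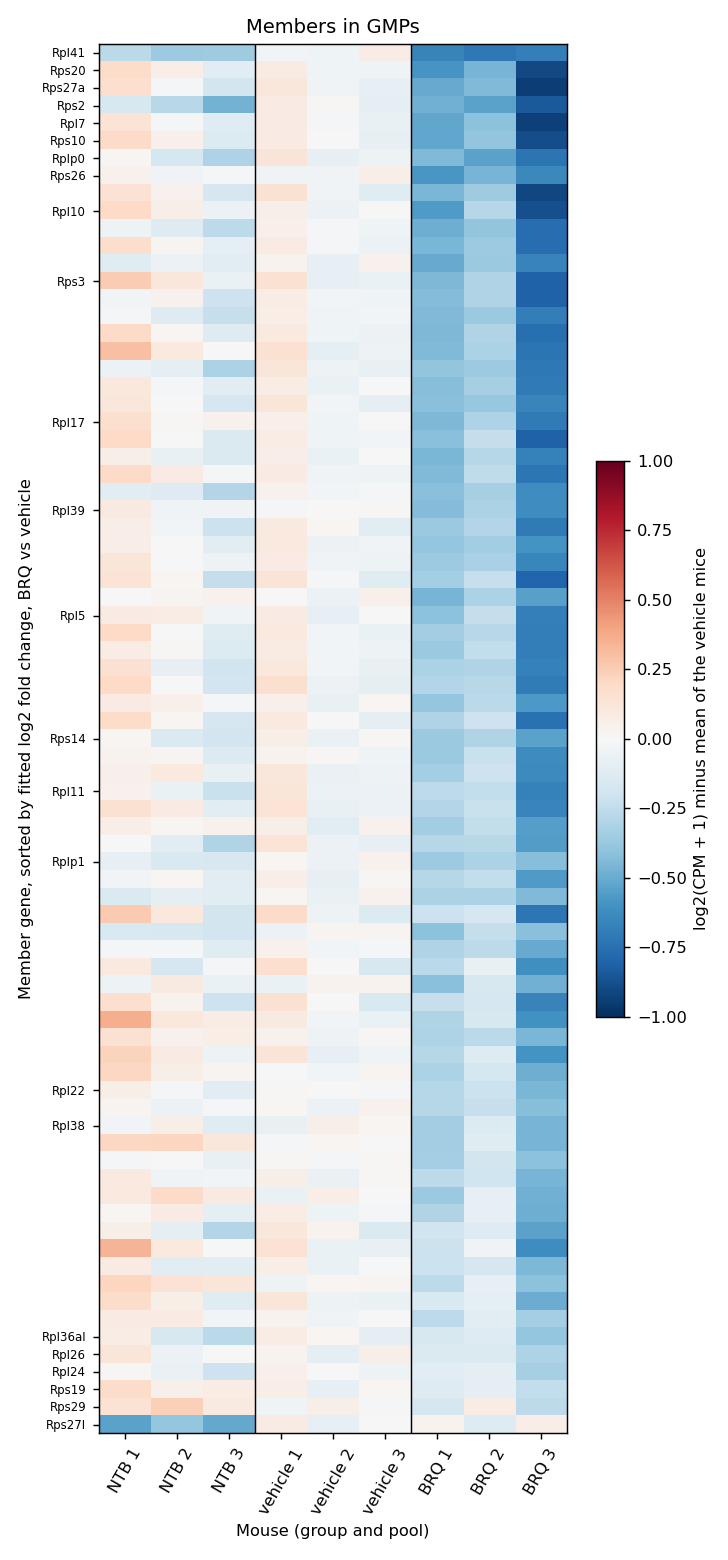
Each row is 1 of the 79 members tested in GMPs and each column 1 mouse; color gives log2(CPM + 1) minus the mean of the vehicle mice, rows follow the fitted BRQ-to-vehicle log2 fold change, and some rows are named. The BRQ columns are blue for nearly all rows, BRQ mouse 3 most of all, and Rps27l at the bottom differs in the NTB columns only.

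Among large-subunit proteins 38 of 47 tested members were lower in BRQ than in vehicle GMPs (median -0.40), and among small-subunit proteins 24 of 32 (median -0.40), or 46 and 29 under the pool block. Rpl41 had the largest change of any member. Its CPM was 4770, 4626 and 4717 in BRQ mice, below all vehicle mice (7436, 7362 and 7991) and all NTB mice, a log2 difference from vehicle of -0.69 ± 0.092 (adjusted p = 2.26e-05). It thus stood highest in vehicle, lower in NTB and lowest in BRQ mice, each step without overlap on the TMM scale. The difference between BRQ and NTB was -0.36 (adjusted p = 0.0195), and with total UMIs -0.19 (adjusted p = 0.0636). Rpl7 of the same subunit followed with 2016, 1892 and 1811 CPM in vehicle and 1328, 1432 and 996 in BRQ mice, again apart (-0.61 ± 0.112, adjusted p = 0.00076).

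The P stalk is the flexible arm of the large subunit that recruits the GTPases of translation, formed by Rplp0 with Rplp1 and Rplp2. All 3 were lower in BRQ. Rplp0 had 2762, 2429 and 2206 CPM in NTB mice, vehicle mice had 3003, 2595 and 2639, and BRQ mice 2016, 1890 and 1652, and the BRQ mice overlapped neither group. Its log2 difference from vehicle was -0.57 ± 0.103 (adjusted p = 0.000662), against -0.37 for Rplp1 and -0.31 for Rplp2.

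Rpl5 and Rpl11 form, with 5S rRNA, the particle that binds MDM2 when ribosome assembly is disturbed. Rpl5 had 1934, 1921 and 1783 CPM in NTB mice, vehicle mice had 1931, 1729 and 1828, and BRQ mice 1373, 1551 and 1139, with NTB and vehicle mixed and BRQ apart. Its log2 difference was -0.44 ± 0.102 (adjusted p = 0.00563) and that of Rpl11 -0.39 ± 0.111 (adjusted p = 0.0223). At the exit of the peptide tunnel 8 of 9 members were lower, from Rpl17 (-0.48) to Rpl38 (-0.31), and Rpl26 passed only under the pool block (-0.20, adjusted p = 0.156, or 0.0308 with it). Rpl39, within the tunnel wall, had -0.45 and Rpl22 -0.32. Rpl3 and Rpl10, which lie near the catalytic center, had log2 differences of -0.44 and -0.56, both past the threshold.

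In the head and decoding region of the small subunit 6 of 11 members were lower, or 9 with pool as a block. Rps20 led them: NTB mice had 6857, 6327 and 5602 CPM, vehicle mice 6416, 5888 and 5870, and BRQ mice 4031, 4382 and 3241. NTB and vehicle were mixed and every BRQ mouse was below both, with a log2 difference of -0.64 ± 0.111 (adjusted p = 0.000419). Rps10 (-0.59), Rps3 at the mRNA entry (-0.51) and Rps16 (-0.48) also fell. In the same region Rps19 and Rps29 were among the members that changed least. Rps19 had 3217, 2903 and 3116 CPM in vehicle and 2807, 2892 and 2596 in BRQ mice, close but without overlap (-0.16 ± 0.091, adjusted p = 0.292). Rps29 had 7314, 7843 and 7456 CPM in vehicle and 6715, 7943 and 6284 in BRQ mice, which overlapped (-0.11 ± 0.103, adjusted p = 0.542).

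Elsewhere in the small subunit, Rps27a, made as a fusion with ubiquitin and cut free, had 9479, 8583 and 8302 CPM in vehicle and 6199, 6461 and 4564 in BRQ mice, without overlap (-0.61 ± 0.122, adjusted p = 0.00154). Rps2, which also lies at the mRNA entry, had 2083, 1983 and 1850 CPM in vehicle and 1412, 1359 and 1102 in BRQ mice, again apart (-0.61 ± 0.104, adjusted p = 0.000348). BRQ mice overlapped neither NTB nor vehicle mice for either gene. Rps6, the phosphorylation target of S6 kinase, had one of -0.47, and Rpsa, also known as the laminin receptor, one of -0.42. Both passed the threshold. Of 14 members tied to Diamond-Blackfan anemia or the 5q- syndrome, 10 were lower (median -0.37), with Rps10, Rps26 (-0.56) and Rpl15 (-0.56) in front, and Rps19, Rpl26, Rps28 and Rps29 did not pass. Under the pool block 12 were lower, Rpl26 and Rps28 included. Rps14 of the 5q- syndrome had 3123, 2856 and 3018 CPM in vehicle and 2320, 2428 and 2069 in BRQ mice, without overlap (-0.40, adjusted p = 0.00619). Among the smallest changes of called members were those of Rpl29 (-0.29), Rps27 (-0.31), Rpl37 (-0.31) and Rpl38.

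None of the 3 tested paralogs and retrogene copies passed without the pool block, and 2 did with it. Rps27l had 1078, 963 and 1104 CPM in BRQ mice, overlapping the vehicle mice, a log2 difference of -0.008 ± 0.088 (adjusted p = 0.979). Rpl36al, a copy of Rpl36a, had -0.22 (adjusted p = 0.157, and 0.0134 with pool as a block), while Rpl36a itself was lower (-0.32, adjusted p = 0.0259). Rps27rt, a retrogene of Rps27, had 26.8 to 46.8 CPM and a log2 difference of -0.35 (adjusted p = 0.0644, and 0.00546 with pool as a block). These copies resemble their parents closely, and the split of reads between them is uncertain.

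**Figure D4:**
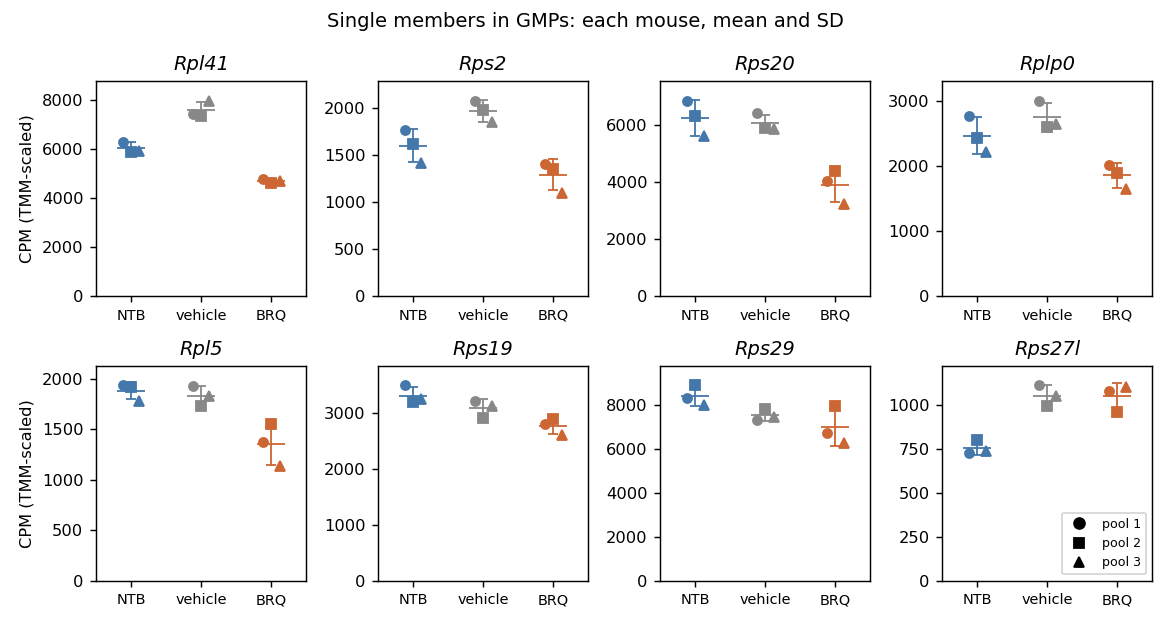
TMM-scaled CPM in GMPs (y axis) of 8 members in NTB, vehicle and BRQ mice (x axis), 1 point per mouse with the shape giving the pool, and lines the mean and SD (n = 3). Rpl41, Rps2, Rps20, Rplp0 and Rpl5 are lowest in BRQ, Rps19 and Rps29 differ least, and Rps27l is high in both tumor-bearing groups.

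Across the 9 GMP sums 76 of the 79 members followed the mean log2 CPM of the other members with a Pearson r of at least 0.80, with a median r of 0.965. The others were Rpl41 (0.78), Rps29 (0.74) and Rps27l (-0.45). The 9 points fall into 3 groups, so these values describe likeness only. BRQ mouse 3 had the lowest share of all, and without it the median difference from vehicle was -0.29 with 44 members called.

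BRQ was also compared with NTB, with the same BRQ mice as above. In GMPs 49 members were lower, against 3.46% of all genes, with a median of -0.41. In 68 members the BRQ mice were all below the NTB mice, which held for 12.9% of genes. Rps20 (-0.69), Rps10 (-0.63), Rpl10 (-0.63), Rps7 (-0.62) and Rps27a (-0.61) had the largest differences. Rps27l alone was higher (0.47 ± 0.09, adjusted p = 0.00262), where 2.56% of all genes were. Rps24 differed more from NTB (-0.53) than from vehicle (-0.35), and Rps2 the reverse (-0.31, adjusted p = 0.083, with adjusted p = 0.00109 under the pool block). Rpl24, Rpl36al and Rpl8 were nearest to 0, at -0.09, -0.11 and -0.18. With total UMIs, where the median of all genes moved to 0.16, Rpl24 (0.081) and Rpl36al (0.064) were above 0, and 41 members were called lower. The count was 27 without NTB mouse 1 and 20 without NTB mouse 2. With pool as a block it was 73, against 6.19% of all genes, and the calls on Rplp1, Rplp2, Rpl11, Rpl22, Rpl29, Rpl37, Rpl38, Rps14, Rps19 and Rps29 were among those gained.

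The start sites of the members were read from RefSeq on GRCm38.p6 to see whether the size of the change goes with a run of C and T near the start. A window of 15 bases on either side of the annotated start was found for 62 of the 82 members. Where a gene had several annotated starts, the one whose window held the longest run was used, for members and all other genes alike. The windows below belong to the 3 members that differed most and the 3 that differed least among those with a window, and capitals mark the longest unbroken run of C and T on the transcribed strand.
Rpl41 (-0.69), chr10:128549154-128549183, minus strand: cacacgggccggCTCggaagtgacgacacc
Rps2 (-0.61), chr17:24720048-24720077, plus strand: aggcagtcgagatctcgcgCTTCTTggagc
Rps10 (-0.59), chr17:27635230-27635259, minus strand: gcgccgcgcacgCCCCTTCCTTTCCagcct
Rpl24 (-0.17), chr16:55966260-55966289, plus strand: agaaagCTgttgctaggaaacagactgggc
Rps19 (-0.16), chr7:24884898-24884927, plus strand: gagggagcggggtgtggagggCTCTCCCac
Rps27l (-0.008), chr9:66946071-66946100, plus strand: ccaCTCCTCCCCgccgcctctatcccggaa

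The run measured 3 bases in Rpl41, the member that changed most, 6 in Rps2 and 13 in Rps10, and 2 in Rpl24, 7 in Rps19 and 9 in Rps27l, the member that changed least. A run of at least 8 bases was present in 41.9% of the 62 member windows and in 13.9% of the windows of all 27025 genes in the table. Among the 59 tested members with a window, the median log2 difference between BRQ and vehicle was -0.40 in the 26 with such a run and -0.40 in the 33 without. An annotated start can lie some bases from the one used, so a missing run says only that these letters are not in this window. A run could lie on either side of the start, as that of Rps27l lies upstream of it, while a TOP tract begins at the start. The medians with and without a run therefore do not test the TOP tract. Across the 79 members the log2 difference had a Pearson r of -0.26 with transcript length, -0.22 with coding length, -0.19 with the share of T, 0.08 with the share of G and C and -0.11 with mean CPM. These are weak values over genes, which are not independent.

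Ribosomal proteins outside the symbol rule were read in the same fit. Of the 5 listed, Rpl22l1, a paralog that can take the place of Rpl22 in the ribosome, was lower in BRQ. It had 1439, 1208 and 1172 CPM in vehicle and 675, 693 and 404 in BRQ mice, without overlap and with a log2 difference of -1.11 ± 0.146 (adjusted p = 1.93e-05), while Rpl22 itself had -0.32 ± 0.092 (adjusted p = 0.0232). The count was 2 of the 5 under the pool block. Rpl7l1, a factor of large-subunit assembly, was higher in vehicle than in NTB mice (0.36, adjusted p = 0.0197), as was Rpl22l1 with pool as a block (0.33, adjusted p = 0.00508). The Rpl7l1 call was lost with total UMIs, with limits read as UMIs, with equal numbers of GMPs per UMI range or cluster, and without vehicle mouse 1 or any single NTB mouse. Between BRQ and vehicle Fau (-0.17), Rack1 (-0.15) and Rpl7l1 (-0.09) did not pass. Rps3a1, a small-subunit protein whose symbol ends in a digit, was lower by -0.43 (adjusted p = 0.00977).

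Of 19 genes listed as having TOP mRNAs, Npm1, Hnrnpa1 and translation factors among them, 7 were lower in BRQ than in vehicle GMPs and none higher (median -0.22). Of all genes 7.36% were lower. With pool as a block 13 were lower, against 11.5% of all genes, and again none higher. A run of at least 8 bases was found in 4 of the 13 listed genes with a start window (30.8%). The 7 were the elongation factor subunits Eef1d (-0.58), Eef1b2 (-0.53) and Eef1g (-0.43), the initiation factor subunits Eif3k (-0.52), Eif3m (-0.46) and Eif3l (-0.31), and the nucleolar chaperone Npm1 (-0.54). Between vehicle and NTB mice 5 of the 19 were higher in vehicle and none lower, where 6.63% of all genes were higher and 484 of 10331 lower. Under the pool block 5 were higher and 1 lower, where 987 of all 10331 genes were higher and 704 lower. The 5 were Eef1d (0.51), Eef1g (0.55), Npm1 (0.62), Hnrnpa1 (0.37) and Eif3a (0.32). Hnrnpa1 (-0.075) and Eif3a (-0.20) were not called between BRQ and vehicle, though Eif3a was under the pool block (adjusted p = 0.0247). Leaving out single mice lost the Hnrnpa1 call (NTB 2 or 3 or vehicle 1) and the Eif3a call (NTB 2 or 3 or vehicle 2 or 3) between vehicle and NTB. Of 14 chaperones and late assembly factors only Mrto4, which holds the place of the P stalk during assembly, was lower (-0.41, adjusted p = 0.00343), and with pool as a block also Bccip (-0.27, adjusted p = 0.0117). Mrto4 and Bccip had been higher in vehicle than in NTB mice (0.56, adjusted p = 0.00242, and 0.38, adjusted p = 0.0364). Of 17 tested regulators of ribosomal protein synthesis, including mTOR complex genes, Larp1, Myc and S6 kinases, only Pdcd4 was called between BRQ and vehicle, and only Larp4 between vehicle and NTB (0.42), or 3 genes with pool as a block. Pdcd4, an inhibitor of the helicase eIF4A, had 202, 194 and 203 CPM in vehicle and 316, 331 and 292 in BRQ mice, a log2 difference of 0.64 ± 0.081 (adjusted p = 1.09e-05).

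By a rule of likeness, the 8 genes outside the members whose log2 CPM followed the members' mean most closely over the 9 GMP sums were taken from 2510 genes with a mean of at least 50 CPM. They were Eef1b2 (Pearson r = 0.997), Eif3k (0.989), Rps3a1 (0.985), Rpl22l1 (0.968), Etfb (0.966), Ndufa6 (0.961), Psenen (0.955) and Cuta (0.950). The first 4 belong to translation. Etfb serves mitochondrial electron transfer, Ndufa6 complex I and Psenen the gamma-secretase.

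Markers of other cells moved with the groups within the GMPs. Of the 7 tested HSC/MPP markers 4 were higher in BRQ than in vehicle, among them Cd34 (log2 difference 0.97), and their summed CPM ran from 103 to 144 in vehicle and from 117 to 202 in BRQ mice. Of 6 tested monocyte markers 3 were higher, led by F13a1 (1.12), with sums of 56.6 to 69.9 in vehicle and 101 to 156 in BRQ mice. Of the 7 GMP markers 2 were lower, or 4 under the pool block, with sums of 39034 to 40179 against 31812 to 40256. Neutrophil markers had 3 of 14 higher and 1 lower, or 4 and 3 under that block, with sums of 34318 to 38077 against 27175 to 38499. Of 3 tested markers each, 2 dendritic cell (3 under the block) and 2 basophil or mast cell markers were higher, with sums of 557 to 586 against 731 to 846 and of 81.8 to 107 against 179 to 197, neither overlapping. No HSC/MPP, monocyte or basophil and mast cell marker was at 0 in all 9 mice, and 1 dendritic cell marker was. Between NTB and vehicle 7 of 14 neutrophil markers were lower in vehicle (8 under the block) and 1 higher, with sums of 47543 to 50959 in NTB, above all vehicle mice. Of all 10331 genes 484 were lower (704 under the block). Macrophage and dendritic cell sums were also lower in vehicle without overlap (272 to 311 against 161 to 175, and 743 to 856 against 557 to 586). So were those of basophil or mast cell markers (121 to 157 against 81.8 to 107). HSC/MPP sums were higher (66.8 to 88.9 against 103 to 144). Malat1 (5062 to 5238 against 3978 to 4600 CPM) and Gm42418 (2346 to 4504 against 1578 to 2222) were lower in vehicle. The share of mitochondrial UMIs was 3.61% to 3.71% in NTB, 3.27% to 3.32% in vehicle and 3.17% to 3.58% in BRQ GMPs. GMPs redefined as the GMP-like clusters gave 62 members lower (median -0.38), and equal numbers per cluster gave 51 (median -0.35). The part of these markers in the members' values was not tested otherwise.

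In HSC/MPP-like cells, tested on 2 vehicle mice because vehicle mouse 2 had only 12 such cells, no member was called between BRQ and vehicle by edgeR or DESeq2, and 0.00974% of all genes were called lower. At an unadjusted p under 0.05 edgeR gave 7 members (601 of 10270 genes) and DESeq2 8, while edgeR with pool as a block gave 34 (706 of 10270 genes). The median was -0.10 with 73 of 79 values below 0, and -0.03 without vehicle mouse 1, without BRQ mouse 3 or with the members used in clustering. Without vehicle mouse 3 or BRQ mouse 1 it was -0.15. Rpl18 (-0.26), Rplp0 (-0.25) and Rpl41 (-0.24) were the lowest, and Rps29 (0.10), Rps27l (0.06) and Rpl32 (0.04) the highest. With pool as a block Rpl18 alone was called (-0.30, adjusted p = 0.0181).

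The difference between these cells and GMPs was tested directly, with mouse as a block, in the 2 vehicle and 3 BRQ mice with enough cells of both. The BRQ effect was less negative in HSC/MPP-like cells for 59 of 79 members, against 2.19% of all genes, with a median difference of 0.36 and all 79 values above 0. Rps2 (0.53 ± 0.091, adjusted p = 3.58e-05), Rpl41 (0.50 ± 0.089) and Rps20 (0.49 ± 0.092) differed most, and Rps27l (0.14, adjusted p = 0.528) least. The count rests on few mice. It was 2 without vehicle mouse 1 and 12 without vehicle mouse 3, fits in which the remaining vehicle mouse is assumed to vary like the others, and 24, 68 and 32 without BRQ mice 1, 2 and 3. In those fits the median stayed between 0.30 and 0.40.

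Monocyte-like cells had 36 members lower in BRQ than in vehicle, against 2.93% of all genes, with a median of -0.32. Rps20 had 7146, 7208 and 6433 CPM in vehicle and 4752, 5063 and 3857 in BRQ mice, without overlap, a log2 difference of -0.60 ± 0.101 (adjusted p = 0.000695). Rpl41 (-0.56) and Rps2 (-0.49) followed, both also among the largest changes in GMPs, though Rpl41 led there. Rps27l (0.11), Rps29 (-0.04) and Rpl24 (-0.10) changed least. With pool as a block 69 members were called, against 5.11% of all genes, and with total UMIs in place of TMM, where the median of all genes moved to 0.12, 26. The count was 5 without vehicle mouse 1, 7 without vehicle mouse 2, which had 42 such cells, and 16 without either BRQ mouse 1 or BRQ mouse 3. No member's BRQ effect differed from that in GMPs by edgeR (3 members and 1225 of 11016 genes at an unadjusted p under 0.05, median difference 0.06). With TMM factors computed without the members 32 were at that level with a median of 0.13, without vehicle mouse 2 there were 21, and without vehicle mouse 1 or BRQ mouse 2 there was 1 member called, more negative in monocyte-like cells.

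The Fcnb-led cluster had 13 members lower in BRQ than in vehicle, against 0.99% of all genes, with a median of -0.28 and 2 vehicle mice. Rps27a (-0.61 ± 0.13, adjusted p = 0.0111), Rpl41 (-0.59 ± 0.115) and Rpl7 (-0.58 ± 0.138) were the lowest, and Rps27l (0.19), Rps29 (0.01) and Rpl24 (0.004) the highest. The count was 48 with pool as a block, against 2.49% of all genes, 25 with DESeq2, and 3 with total UMIs in place of TMM, where the median of all genes moved to 0.19. It was 0 with the stricter tag rule and 0 without vehicle mouse 1 or BRQ mouse 1, 4 without BRQ mouse 3 and 5 without NTB mouse 2. No member's BRQ effect differed from that in GMPs by edgeR (6 members and 885 of 10199 genes at an unadjusted p under 0.05, median difference 0.12). Those at that level numbered 19 with TMM factors computed without the members and 0 to 21 when single mice were left out, 21 without BRQ mouse 3, where 1 member was called. Against NTB, vehicle mice had 3 members higher in this cluster, Rps2 (0.65 ± 0.129), Rpl41 (0.54 ± 0.115) and Rps27l (0.50 ± 0.132), where 3.27% of all genes were higher. With pool as a block there were 16, against 3.7% of all genes, with the stricter tag rule only Rps2, and without vehicle mouse 1 none.

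**Figure D5:**
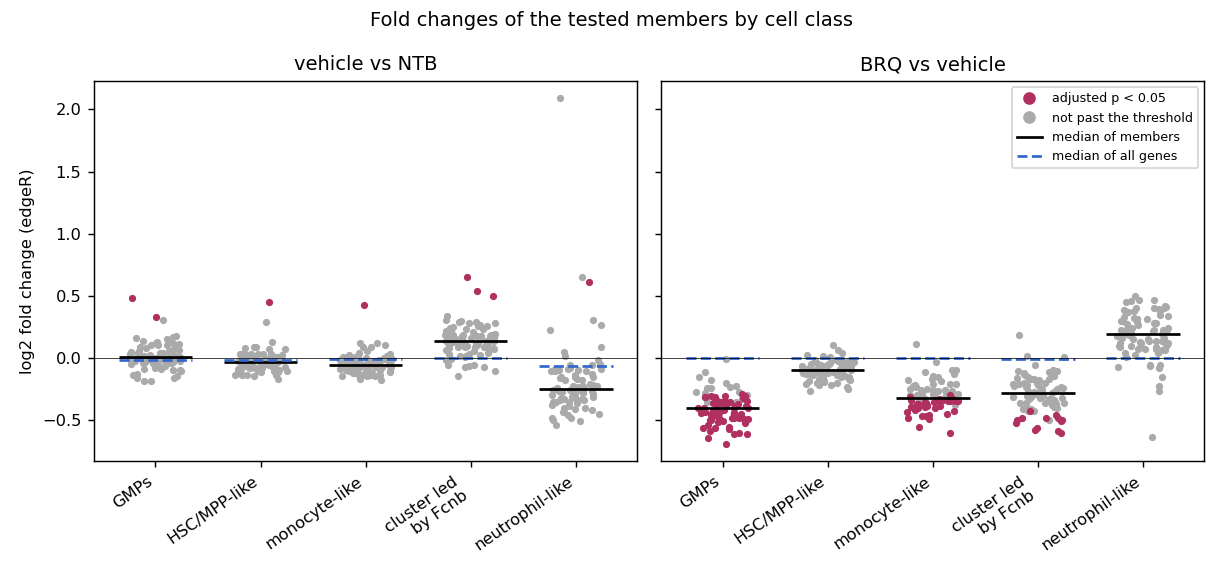
Fitted log2 fold changes of the tested members (y axis, 1 point per gene) by cell class (x axis), vehicle against NTB on the left and BRQ against vehicle on the right, with lines for the median of the members and of all genes tested. The members lie below 0 in GMPs (median -0.40), monocyte-like cells (-0.32) and the Fcnb-led cluster (-0.28), near 0 in HSC/MPP-like cells (-0.10) and above it in the summed neutrophil-like cells (0.19).

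Rps27l was higher in vehicle than in NTB mice in each immature class tested. In HSC/MPP-like cells it had 445, 449 and 464 CPM in NTB mice, vehicle mice had 588 and 659, and BRQ mice 673, 630 and 637, and both tumor-bearing groups lay above NTB. The log2 difference between vehicle and NTB was 0.45 ± 0.101 (adjusted p = 0.0137), in a class where 1.37% of all genes were higher. It was the only member called there, or 1 of 2, with Rpl36al (0.33, adjusted p = 0.0119), under the pool block. In monocyte-like cells it was again the only one, at 0.43 ± 0.102 (adjusted p = 0.0221), with 1.89% of all genes higher. No class gave a call on Rps27l between BRQ and vehicle. In GMPs the difference from NTB was called under 20 of 21 alternatives, the exception being limits read as UMIs (0.03). It was called under 12 of 17 alternatives in HSC/MPP-like cells, 13 of 18 in monocyte-like cells and 11 of 15 in the Fcnb-led cluster, and was lost in each when single mice were left out: NTB 3, vehicle 1 or vehicle 3 in HSC/MPP-like cells, NTB 2, NTB 3, vehicle 1 or vehicle 2 in monocyte-like cells, and NTB 2, NTB 3 or vehicle 1 in the cluster. It was also lost with the stricter tag rule in HSC/MPP-like cells and in the cluster. All these log2 values stayed above 0.

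Neutrophil-like cells gave the opposite sign when summed, with a median of 0.19 between BRQ and vehicle and 71 of 80 members above 0. The median was 0.03 without vehicle mouse 3, 0.11 and 0.09 without BRQ mouse 1 or 2, 0.36 without vehicle mouse 1, 0.37 with the stricter tag rule and 0.38 without BRQ mouse 3, where 7 members were called higher, as were 4.44% of all genes. No member and no gene (0.0%) was called lower, and 1 member had an unadjusted p under 0.05 by edgeR and none by DESeq2. Rps27rt (-0.64), Rps9 (-0.27) and Rpl41 (-0.23) were the lowest, and Rpl6 (0.47) and Rps4x (0.46) were among the highest. Against GMPs the median difference of the BRQ effect was 0.59. No member was called by edgeR, with 64 members and 1275 of 9386 genes at an unadjusted p under 0.05. Without vehicle mouse 1, 47 were called, against 3.03% of all genes, and without BRQ mouse 3, 44, against 4.54%.

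The groups drew these cells from different clusters. A cluster led by Wfdc17 and Il1b, with 1663 UMIs per cell at the median, held 818 vehicle, 737 BRQ and 103 NTB cells. A cluster led by Chil3 and Camp, with 7662 UMIs, held 85 vehicle, 195 BRQ and 840 NTB cells. In vehicle mice the members' share was 4.57% in the former and 11.1% in the latter (1 mouse). The remaining cluster, led by Ifitm6 and Ly6g, held 98 vehicle, 267 BRQ and 396 NTB cells.

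Within the Wfdc17- and Il1b-led cluster alone, 79 of 80 fitted values were below 0 between BRQ and vehicle, with a median of -0.33. There were 4 called, with Rps18 (-0.93) and Rpl39 (-0.54) among them, against 0.761% of all genes. In the Ifitm6- and Ly6g-led cluster, with 2 vehicle mice, 44 of 78 members were above 0 with a median of 0.01 and none was called by edgeR (2 at an unadjusted p under 0.05). The mean share was 6.03% in BRQ and 5.17% in vehicle mice there, and 11.4% and 11.1% in the Chil3- and Camp-led cluster. Against NTB, vehicle mice had 77 of 80 members higher in fitted value in the Wfdc17- and Il1b-led cluster, with a median of 0.49. That fit held only NTB mice 2 and 3, the mice with the weak tags, and was not repeated with the stricter tag rule. The 3 called were Rpl39 (0.99), Rps14 (0.98) and Rps21 (0.73), against 0.72% of all genes. In the summed class the sign was the reverse, with a median of -0.25 and 71 of 80 members below 0. Only Rps9 was called in the summed class, and higher in vehicle mice: 2116, 2152 and 1794 CPM in NTB against 2945, 3166 and 3175 in vehicle mice, 0.62 ± 0.164 (adjusted p = 0.0147), where 14.8% of all genes were higher. With pool as a block 2 members were higher and 17 lower, where 15.4% of all genes were lower. The stricter tag rule gave 2 and 19 of 80, a share near that of all genes called lower (23.6%). Without NTB mouse 3 or vehicle mouse 3 none was called. The genes named for the single cluster, and the reading of that cluster alone, were chosen after their values were seen.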

How the data were processed

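Gene expression (Chromium 3 prime v3.1) and hashtag antibodies were measured in 3 pools. The deposited counts are whole UMI counts per gene or tag and cell, made by the authors with Cell Ranger 6.0.0 on mm10, per the submitters' processing notes, with no normalization. Cells with 500 to 7500 detected genes were kept. Mice were assigned with HTODemux (Seurat 5.3.0, quantile 0.99), which sets aside tag doublets; cells marked by Scrublet stayed in, except in an alternative. Leiden clusters (scanpy 1.11.5, leidenalg 0.10.2) came from 2000 variable genes without the members and were named from markers. Cells are not replicates, so counts were summed per mouse and class, with at least 20 cells of a class outside GMPs. They were tested with edgeR 4.0.16 (quasi-likelihood, TMM, filterByExpr, Benjamini-Hochberg over all genes of the fit, threshold 0.05), and DESeq2 1.42.0 was an alternative. Every adjusted p in the text comes from edgeR unless DESeq2 is named, and SE belongs to the fitted log2 value. The step was tested on simulated data. The p-values measure the spread between mice, 3 per group in the main GMP fit and fewer in some other fits. Those for the difference between classes, with mouse as a block, measure the spread left within mice. UMI depth limits the precision of each sum, and vehicle mouse 2 had the fewest UMIs.

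The labels give each pool 1 mouse of every group, so pool numbers pair the mice. Deviations from group means of same-pool GMP sums correlated at 0.0607 to 0.474 over 2588 genes, lowest in pool 2. Counts of calls with pool as a replicate block stand beside those that it moved most. The members and lists were chosen with earlier results of these data known. Members named in GMPs were the 5 calls of largest and the 5 of smallest size, the 3 nearest to 0, and a list by role; elsewhere the 3 lowest and 3 highest were named. Start windows came from RefSeq on GRCm38.p6. Classes with too few cells were not tested, and some genes are not reported here by name.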

Additional observations from a re-analysis of the deposited data

Results flagged for a closer look

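The BRQ effect on 59 of 79 members differed between HSC/MPP-like cells and GMPs in the test of that difference, and all 59 were less negative in HSC/MPP-like cells. The count ranged from 2 to 68 when single mice were left out and was 59 with TMM factors computed without the members. The fit held 2 vehicle and 3 BRQ mice.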

How the results depend on the processing

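The members' fall between vehicle and BRQ GMPs kept its sign in the median under every alternative run except limits of 500 and 7500 read as UMIs, which left 8 and 16 GMPs in vehicle mice 2 and 3. There no member was called in any of the 3 GMP comparisons (0, 0 and 0) and the median against vehicle was 0.064. Of the 78 members in that fit, 47 were above 0 against vehicle and 31 below. Single values that turned positive included Rpl3 0.15, Rpl6 0.11, Rpl10 0.29, Rpl11 0.085, Rpl22 0.19, Rpl35 0.28, Rpl36a 0.43, Rpl37 0.25, Rpl38 0.073, Rpl39 0.076, Rplp2 0.007, Rps6 0.042, Rps7 0.047, Rps14 0.16, Rps24 0.23, Rps27 0.28, Eef1b2 0.11 and Eef1g 0.058. Rpl41 against NTB in vehicle mice was -0.10. Shares under these limits were 27.0% in NTB, 21.3% in vehicle and 22.7% in BRQ GMPs, with BRQ above vehicle, 31.5% in NTB and 30.8% in BRQ HSC/MPP-like cells, 20.8% in BRQ monocyte-like cells, 5.15%, 4.37% and 4.52% in NTB, vehicle and BRQ neutrophil-like cells, and 15.7% and 16.4% in NTB and BRQ cells of the Fcnb-led cluster, where leaving out Scrublet-marked cells gave 17.5% in NTB.

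Total UMIs in place of TMM gave 41 members lower against vehicle in GMPs and 3 in the Fcnb-led cluster. Between vehicle and NTB GMPs, equal numbers per UMI range or per cluster gave 1. The pool block gave 2 members higher in vehicle HSC/MPP-like cells and 1 lower in BRQ, 69 lower in BRQ monocyte-like cells, 2 higher and 17 lower in vehicle neutrophil-like cells, and 16 higher in vehicle and 48 lower in BRQ cells of the Fcnb-led cluster; it moved no other count over all members of a class reported here by over 1.5 times. The tag-ratio rule gave 0 higher in vehicle HSC/MPP-like cells, and 2 higher in vehicle neutrophil-like cells beside the lower calls given above. In the Fcnb-led cluster it gave 1 higher for vehicle and 0 lower for BRQ. DESeq2 gave 2 in vehicle neutrophil-like cells and 25 lower in BRQ cells of the Fcnb-led cluster. At least 50 cells per mouse gave 0 for vehicle and 4 for BRQ in monocyte-like cells. Clustering with the members gave 0 in vehicle HSC/MPP-like cells, and leaving out Scrublet-marked cells 2 in vehicle neutrophil-like cells. In single neutrophil-like clusters, chosen after seeing the data, vehicle gave 3 in the Wfdc17- and Il1b-led one and 0 in the Ifitm6- and Ly6g-led one, and BRQ gave 4 lower in the former.

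Leaving out 1 mouse at a time gave 1 to 3 members for vehicle, 35 to 71 for BRQ against vehicle and 20 to 64 for BRQ against NTB in GMPs. For vehicle it gave 0 to 1 called higher in HSC/MPP-like and in monocyte-like cells and 0 to 3 called higher in neutrophil-like cells and in the Fcnb-led cluster. Members called lower in vehicle are not counted in these ranges. For BRQ against vehicle it gave 5 to 43 in monocyte-like cells and 0 to 14 in the Fcnb-led cluster. The difference from GMPs gave 2 to 68 in HSC/MPP-like cells, 0 to 47 in neutrophil-like cells and 0 to 1 in the Fcnb-led cluster. Scaling by total UMIs and the reading of single clusters were added after seeing the data, as were the alternatives for the difference between classes. The causes of these changes were not tested. In the fits with 1 vehicle mouse left, that mouse is assumed to vary like the others. NTB mouse 1 and vehicle mouse 2 had the fewest GMPs, 88 and 95.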
